A study of Sus scrofa with 9 samples.

Results

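The microRNA precursor loci are the 39 genes of the deposited TPM table whose name starts with ssc-mir and whose level was 1 TPM or more in 3 or more of the 9 labelled hearts. They are 39 of 183 genes with such a name and of 25149 genes in the table. Of the others, 105 were at 0 in all hearts and 39 were above 0 in 1 or 2 hearts. The threshold therefore divided loci with signal in 3 or more hearts from all others. Just inside it, mir-30b had its 3 highest hearts at 1.12 TPM or more and mir-99b at 1.21 TPM or more. No locus outside it had 3 hearts above 0.

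The samples were apex biopsies of 9 hearts from female Yorkshire pigs aged 4 to 6 months, 1 biopsy per pig, in a model of donation after circulatory death (DCD) with 15 min of warm ischemia. Group 1 (NRP + HOPE 24 h, pigs 27, 28 and 30) had NRP (normothermic regional perfusion, which restores warm blood flow to organs still in the donor) for 60 min and then 24 h of hypothermic oxygenated perfusion (HOPE) at 8 °C. Group 2 (NRP + SCS 2 h, pigs 24, 25 and 29) had the same NRP and 2 h of static cold storage (SCS) at 4 °C. Group 3 (No NRP + HOPE 2 h, pigs 31, 33 and 34) had no NRP and 2 h of HOPE at 8 °C. All 9 hearts were reanimated by 2 h of normothermic machine perfusion (NMP) before the biopsy, so no value describes a heart before warm reperfusion. Values of a group are listed below in the order of the pig numbers just given.

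MicroRNA genes are transcribed as long primary transcripts, many of them within the introns of protein-coding genes. The nuclear enzyme DROSHA with its partner DGCR8 cuts a hairpin precursor out of the primary transcript, XPO5 exports it, DICER1 cuts it to the mature strand, and Argonaute proteins such as AGO2 use that strand to repress messenger RNAs. In the heart, microRNAs are known for marking muscle cells (mir-1, mir-133, mir-208b), endothelium (mir-126) and inflammation (mir-155).

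The libraries were made from RNA bound to oligo(dT) beads and sequenced in reads of 150 bases. The 38 loci found in the reference annotation are 70 to 110 bases long there, shorter than a read, and a mature microRNA is shorter still. The values are therefore read here as primary or host transcript that covers the hairpin, not as levels of mature microRNA.

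TPM are reads per gene divided by gene length and scaled to a total of 1000000 in each heart. At the microRNA loci the TPM of a heart, multiplied by the locus length, fell on whole steps. All 39 loci gave whole numbers of counted reads in all hearts within 0.02 reads, or within a wider limit at high counts. For 31 this held with the locus length of the reference annotation, and for the other 8 the length was itself fitted to give whole steps. The TPM of 1 read in each heart was also fitted on the microRNA loci. At reference lengths, 74.2% to 86.2% of the ssc-mir values above 0 in a heart were whole within 0.02 reads. A counted read may be a read pair. For mir-212, of 82 bases in the reference annotation, a fitted length of 62 bases or its double met the steps, so its number of reads may be larger by that factor. The loci held 1965 reads in all, from 155 in pig 24 to 328 in pig 34, and the total depth of each heart remained unknown. Reads per locus over all hearts ranged from 4 (mir-30b and mir-500) to 403 (mir-29c), with a median of 19. Of 351 values, 109 (31.1%) were at 0, 153 rested on 1 to 5 reads and 53 on 10 or more. Of all values of the 11782 genes tested, 1.88% were at 0.

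**Figure D1:**
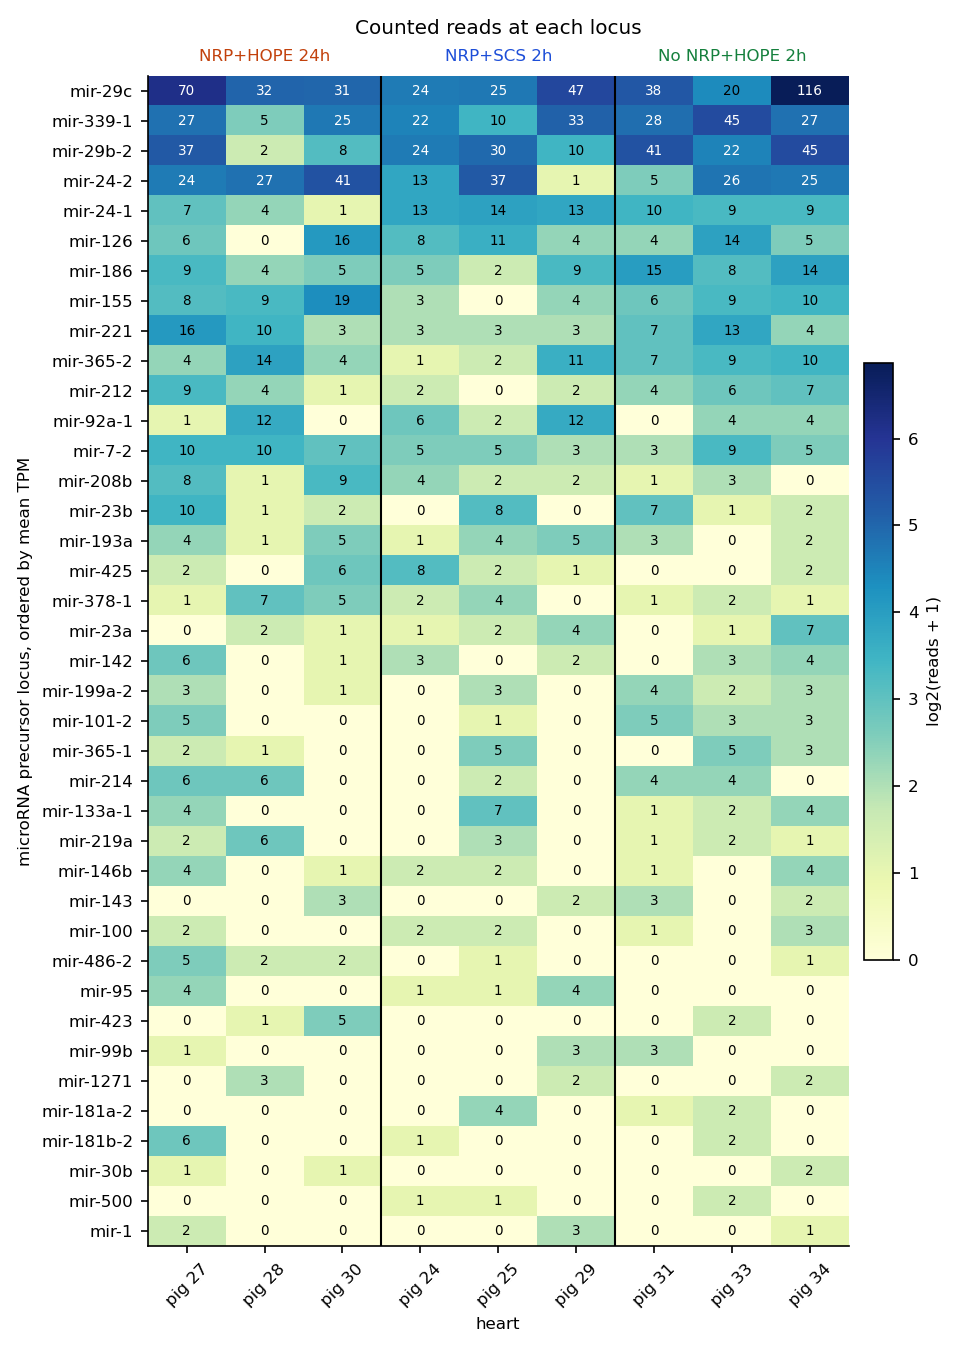
Counted reads at each of the 39 microRNA precursor loci (rows, ordered by mean TPM) in each heart (columns, in 3 groups), with colour on a log2(reads + 1) scale. The upper 4 loci hold most of the reads, 9 loci have reads in all 9 hearts, and the lower rows are mostly 0 to 5 reads.

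A step of 1 read was worth 1.06 TPM in pig 27 and 2.17 TPM in pig 24 at a locus of 80 bases, with the other hearts in between. On the log2(TPM + 1) scale used for all fold changes, the step from 0 to 1 read was 1.04 to 1.66, while the step from 10 to 11 reads was 0.126 to 0.132. At a locus with no read in one group and 1 read per heart in another, the log2 fold change is thus over 1. The residual SD between hearts of a group was 1.22 in the median over the 39 loci. It was 0.95 over 273 other short RNA loci and 0.42 over all genes. These other loci were chosen by name, as an Rfam accession or a SNORA, SNORD, SCARNA or RNU symbol.

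Signal was concentrated in a few loci. mir-29c, mir-339-1, mir-29b-2 and mir-24-2 held 52.6% of the TPM of the 39 loci, and the 10 highest loci held 75.2%. Of the 10 highest, mir-24-1, mir-126, mir-186, mir-155 and mir-221 are described with the comparisons or lists they belong to. Members of the mir-29 family are known as repressors of collagen and other matrix genes.

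The highest locus, mir-29c, stood at 67.5, 40.2 and 55.6 TPM in Group 1, 47.3, 35.9 and 76.0 in Group 2 and 52.8, 32.3 and 209.8 in Group 3. It was highest in pig 34, and the groups overlapped in all 3 comparisons. Its neighbour within 5 kb, mir-29b-2, stood at 38.8, 2.73 and 15.6 TPM in Group 1, 51.4, 46.8 and 17.6 in Group 2 and 61.9, 38.6 and 88.4 in Group 3. Both loci were highest in pig 34, while pig 28 was lowest for mir-29b-2 and pig 33 for mir-29c. Summed over both loci, the means ± SD (n = 3 hearts) were 73.5 ± 31.7 TPM in Group 1, 91.7 ± 8.13 in Group 2 and 161 ± 121 in Group 3.

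The second-highest locus, mir-339-1, which lies within C7orf50 in the reference annotation, stood at 28.6, 6.91 and 49.4 TPM in Group 1, 47.7, 15.8 and 58.7 in Group 2 and 42.8, 79.9 and 53.7 in Group 3. Pig 28 was lowest and pig 33 highest. The fourth, mir-24-2, stood at 25.1, 36.9 and 80.0 TPM in Group 1, 27.8, 57.8 and 1.76 in Group 2 and 7.55, 45.6 and 49.1 in Group 3. It ranged from 1.76 TPM in pig 29 to 80.0 TPM in pig 30, and the hearts of each group were widely spread. For mir-365-2, the tenth, the values were 4.24, 19.4 and 7.90 TPM in Group 1, 2.17, 3.16 and 19.6 in Group 2 and 10.7, 16.0 and 19.9 in Group 3, with pigs 24, 25, 27 and 30 below all hearts of Group 3.

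Summed over the 39 loci, TPM per heart was 315, 220.2 and 394 in Group 1, 333, 302 and 315 in Group 2 and 307, 405 and 631 in Group 3. Pig 34 was highest, of which 209.8 TPM lay on mir-29c, and it held the highest value of 10 of the 39 loci. Group 1 differed from Group 2 by -6.88 TPM (exact permutation test, two-sided, p = 0.8), Group 3 from Group 2 by 131 TPM (p = 0.3 by the same exact test) and Group 1 from Group 3 by -138 TPM (p = 0.3, exact). With 3 hearts in each group this exact test cannot go below p = 0.1. Without pig 34, the difference of Group 3 from Group 2 was 39.8 TPM and that of Group 1 from Group 3 was -46.6 TPM. Without pig 31 they were 201.7 TPM (exact p = 0.1) and -209 TPM (exact p = 0.2), and after median-of-ratios scaling Group 3 differed from Group 2 by 139 TPM (exact p = 0.1). The sign of the difference between Groups 1 and 2 turned to 37.9 TPM without pig 28, to 1.24 TPM without pig 24 and to 25.2 TPM after median-of-ratios scaling.

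All hearts held a bulk mixture of cell types, although the labels give the cell type as cardiomyocytes. The 5 cardiomyocyte markers in the table (MYH7, TNNT2, TNNI3, ACTC1, RYR2) summed to 17875 to 32089 TPM per heart. The 4 endothelial markers (PECAM1, VWF, TEK, KDR) summed to 160.3 to 375 TPM and the fibroblast markers DCN and PDGFRA to 284 to 459 TPM. The 13 mitochondrially encoded proteins took 38.2% to 55.3% of all TPM, lowest in pig 30 and highest in pig 27, and every other TPM is relative to what remains. In such tissue, fewer cells of a type and less RNA per cell cannot be told apart.

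Group 1 against Group 2 compared 24 h of HOPE with 2 h of SCS after NRP, so that the method, the temperature and the duration of storage changed together. mir-24-1 was the locus with the lowest p, at a lower level after 24 h of HOPE in all 3 hearts. mir-486-2 and mir-155 were higher in every heart of Group 1 than in any of Group 2. None of the 39 loci passed the threshold for a call.

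mir-24-1 stood at 8.25, 6.14 and 2.19 TPM in Group 1, 31.3, 24.6 and 25.7 in Group 2 and 17.0, 17.7 and 19.9 in Group 3. Every heart of Group 1 lay below every heart of Group 3, and these lay below every heart of Group 2. The means ± SD (n = 3) of Groups 1 to 3 were 5.53 ± 3.07, 27.2 ± 3.61 and 18.2 ± 1.51 TPM. Behind them were 7, 4 and 1 reads in Group 1, 13, 14 and 13 in Group 2 and 10, 9 and 9 in Group 3. The log2 fold change of Group 1 against Group 2 was -2.24 (SE 0.37, 95% confidence interval -3.02 to -1.45, limma adjusted p = 0.0586). It passed the threshold without pig 27 (adjusted p = 0.0325) and with a pseudocount of 5 (adjusted p = 0.0434), and the adjusted p ranged from 0.0325 to 0.319 over 12 alternative settings. In all of them the log2 fold change was between -2.55 and -1.65.

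mir-24-1 and mir-24-2 are separate loci of the same mature microRNA, miR-24. Summed over both, TPM was 33.4, 43.0 and 82.2 in Group 1, 59.2, 82.4 and 27.4 in Group 2 and 24.5, 63.3 and 69.0 in Group 3. The groups overlapped in this sum, in which mir-24-2 was the larger part in 6 of the 9 hearts. The log2 fold change of mir-24-2 in this comparison was 1.37 (SE 0.93, adjusted p = 0.99), with an interval of -0.62 to 3.36. It was 0.07 without pig 29, which held 1 read, and 2.27 without pig 25. The authors counted uniquely mapped reads only, so reads that fit both copies equally well are not in either value.

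The hairpins of the mir-23, mir-27 and mir-24 clusters are made from common primary transcripts. In the reference annotation mir-23a lies within 5 kb of mir-24-1, and mir-23b within 5 kb of mir-24-2. mir-23a stood at 0, 3.16 and 2.26 TPM in Group 1, 2.48, 3.61 and 8.13 in Group 2 and 0, 2.03 and 15.9 in Group 3. Its highest heart was pig 34, and the log2 fold change of Group 1 against Group 2 was -1.14 (SE 0.81, adjusted p = 0.99), and -0.52 without pig 27. mir-23b stood at 10.6, 1.38 and 3.95 TPM in Group 1, 0, 12.6 and 0 in Group 2 and 10.7, 1.77 and 3.98 in Group 3, highest in pig 25. Neither locus separated the groups. On the log2 scale mir-23a had the group order of mir-24-1. Its log2 fold change was -0.51 in Group 3 against Group 2 and -0.64 in Group 1 against Group 3. These turned to 0.44 without pig 31 and to 0.45 without pig 34. By mean TPM, Group 3 was highest at mir-23a (5.98 TPM). mir-23b did not have the order of mir-24-1 on either scale.

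mir-486-2, a microRNA known from muscle and red cells, stood at 5.17, 2.70 and 3.85 TPM in Group 1, 0, 1.54 and 0 in Group 2 and 0, 0 and 1.94 in Group 3. All 3 hearts of Group 1 lay above the others, at 2 to 5 reads against 0 or 1. Its log2 fold change was 1.82 (SE 0.49, adjusted p = 0.43), and it was 3.93 with a pseudocount of 0.1 and 0.69 with one of 5. Erythroid markers moved between hearts as well. Of the 4 chosen, HBB and ALAS2 were tested, SLC4A1 stood at 0.0899 TPM or lower and HBA1 was not analysed here. Their sum was 73.9, 343 and 425 TPM in Group 1, 71.4 to 133 TPM in Group 2 and 222 to 373 TPM in Group 3. Pig 27, with the most mir-486-2 in TPM, had a sum within the range of Group 2. The part of red cells in the result was not tested.

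mir-155, which is induced in activated leukocytes and other cells under inflammation, stood at 8.38, 12.3 and 37.1 TPM in Group 1, 6.42, 0 and 7.02 in Group 2 and 9.06, 15.8 and 19.6 in Group 3. Groups 1 and 2 did not overlap, with 8, 9 and 19 reads against 3, 0 and 4. At mir-155 the log2 fold change was 2.11 (SE 0.70, adjusted p = 0.77). It was 1.12 without pig 25, the heart at 0. The 2 macrophage markers (CD68, CSF1R) summed to 10.4 to 25.2 TPM in Group 1, 20.6 to 33.6 in Group 2 and 15.9 to 22.0 in Group 3. The neutrophil markers S100A8 and S100A9 summed to at most 13.2 TPM in any heart, highest in pig 24, and CSF3R was at 0 in all hearts. The highest sums of both lists lay in Group 2, where mir-155 was lowest. The macrophage sum was mostly CD68, and CSF1R was spread differently. CSF1R stood at 1.22, 1.94 and 0.909 TPM in Group 1, 0.333, 0.243 and 2.23 in Group 2 and 0.0782, 1.18 and 0.204 in Group 3. The part of macrophages and neutrophils in the result was not tested.

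mir-221, known from vascular smooth muscle growth, stood at 19.4, 15.8 and 6.77 TPM in Group 1, 7.43, 5.42 and 6.09 in Group 2 and 12.2, 26.4 and 9.09 in Group 3. Group 2 had 3 reads in each heart and Group 1 had 16, 10 and 3. Its log2 fold change was 0.93 (SE 0.42, adjusted p = 0.99), and pig 30 lay within the range of Group 2. Its neighbour mir-222 was above 0 in pig 34 only.

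In this comparison 0 of the 39 loci were called by limma (absolute log2 fold change over 1 with adjusted p below 0.05), and 0.0255% of all genes were. At an unadjusted p under 0.05 there were 4 (mir-24-1 lower, mir-486-2, mir-155 and mir-221 higher), which is 10.3% of the loci against 4.97% of all genes and 12.1% of the other short RNA loci. The 3 higher loci stood beside 1.82% of all genes and the 1 lower locus beside 3.14%. This count was 9 without pig 25, 8 without pig 29, 7 without pig 27 and 7 in a fit of the 6 hearts alone. The groups did not overlap in 3 loci (7.69%), against 9.82% of all genes, with 2 loci higher (2.5% of all genes) and 1 lower (7.32%). An absolute log2 fold change over 1 was reached by 14 loci (35.9%), against 3.16% of all genes and 21.2% of the other short RNA loci. The median log2 fold change was 0.06 over the 39 loci and -0.12 over all genes, and scaling by median of ratios in place of TPM moved the latter to 0.00. These medians moved with single hearts, and their order turned without pig 27. Without that heart they were -0.27 over the 39 loci and 0.04 over all genes, and without pig 30 they were -0.04 and -0.31. Without pig 28 the median over the 39 loci was 0.27.

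The other loci that led in either direction did not reach an unadjusted p under 0.05. mir-423, within NSRP1, stood at 0, 1.38 and 9.87 TPM in Group 1, 0, 0 and 0 in Group 2 and 0, 3.55 and 0 in Group 3, so that pig 30 carried most of its signal. mir-7-2, which lies within HNRNPK, stood at 7.78, 10.1 and 10.1 TPM in Group 1, 7.96, 5.80 and 3.91 in Group 2 and 3.37, 11.7 and 7.30 in Group 3. It had reads in all hearts and a log2 fold change of 0.62 (SE 0.39), and 0.40 without pig 29. On the lower side, mir-92a-1 of the mir-17 cluster stood at 1.06, 16.6 and 0 TPM in Group 1, 13.0, 3.16 and 21.3 in Group 2 and 0, 7.10 and 7.96 in Group 3. It was high in 1 heart of Group 1 and in 2 hearts of Group 2, pigs 28, 24 and 29. mir-500 had 1 read in each of pigs 24 and 25, 2 in pig 33 and 0 elsewhere.

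**Figure D2:**
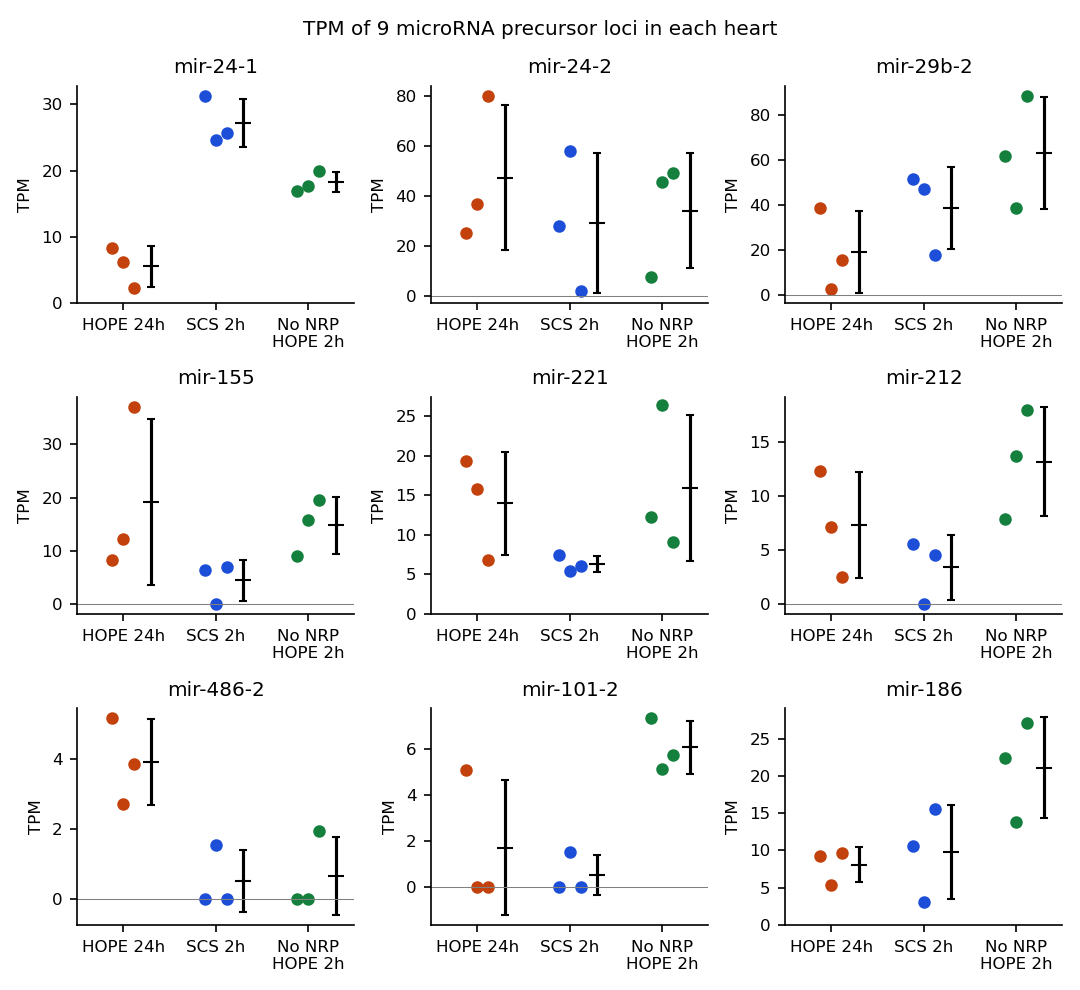
TPM of 9 microRNA precursor loci in each heart (points) by group, with the group mean and SD beside the points (n = 3 hearts). mir-24-1 falls into 3 separate ranges, 2.19 to 8.25 TPM in Group 1, 24.6 to 31.3 in Group 2 and 17.0 to 19.9 in Group 3, whereas mir-24-2 overlaps between all groups.

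Group 3 against Group 2 compared hearts without NRP and with 2 h of HOPE to hearts with NRP and 2 h of SCS, so that the presence of NRP and the storage method cannot be told apart. mir-101-2, mir-212, mir-155 and mir-221 were higher in every heart of Group 3, and mir-95 and mir-24-1 were lower in every heart. None passed the adjusted threshold. Marker sums also differed between these groups without overlap. Fibroblast markers were at 366 to 459 TPM in Group 3 against 284 to 335 in Group 2. That sum was mostly DCN, while PDGFRA overlapped, at 1.60 to 4.46 TPM in Group 3 and 2.44 to 5.08 in Group 2. Erythroid markers were at 222 to 373 TPM against 71.4 to 133, and neutrophil markers at 0 to 0.343 against 2.02 to 13.2. The part of these lists in the differences was not tested. This comparison and the preceding one share the hearts of Group 2.

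mir-101-2, which lies within the cytokine receptor kinase gene JAK1, stood at 5.11, 0 and 0 TPM in Group 1, 0, 1.52 and 0 in Group 2 and 7.37, 5.13 and 5.75 in Group 3. It had 3 to 5 reads in each heart of Group 3, 1 read in Group 2 and 5 reads in Group 1, all in pig 27. Here the log2 fold change was 2.37 (SE 0.61, adjusted p = 0.32), and 1.02 with a pseudocount of 5. JAK1 itself stood at 23.8, 28.4 and 37.6 TPM in Group 1, 49.5, 37.1 and 37.4 in Group 2 and 24.7, 30.5 and 24.5 in Group 3, with a log2 fold change of -0.61 (SE 0.28, adjusted p = 0.69).

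mir-212, which shares a primary transcript with mir-132 and is induced by neuronal and hypertrophic signals, stood at 12.3, 7.13 and 2.55 TPM in Group 1, 5.60, 0 and 4.59 in Group 2 and 7.89, 13.7 and 18.0 in Group 3. Group 3 lay above Group 2 in all hearts. For mir-212 the log2 fold change was 2.03 (SE 0.65, adjusted p = 0.48), and 1.16 without pig 25, where it was at 0. For mir-155 the log2 fold change was 1.96 (SE 0.70, adjusted p = 0.55), and 0.97 without pig 25, again a heart at 0. For mir-221 it was 1.08 (SE 0.42, adjusted p = 0.60), and 0.67 without pig 33.

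mir-186, which lies within the splicing factor gene ZRANB2, stood at 9.31, 5.39 and 9.63 TPM in Group 1, 10.6, 3.08 and 15.6 in Group 2 and 22.4, 13.8 and 27.2 in Group 3. It was highest in pigs 34 and 31, and pig 33 lay below pig 29 of Group 2. Its log2 fold change was 1.21 (SE 0.46, adjusted p = 0.59), and 0.62 without pig 25. mir-199a-2, which lies within the dynamin gene DNM2, stood at 3.18, 0 and 1.97 TPM in Group 1, 0, 4.74 and 0 in Group 2 and 6.11, 3.55 and 5.97 in Group 3. Its log2 fold change was 1.77 (SE 0.65, adjusted p = 0.57) on 9 reads in Group 3 and 3 in Group 2, all of the latter in pig 25.

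Downwards, mir-95 stood at 4.19, 0 and 0 TPM in Group 1, 2.14, 1.56 and 7.02 in Group 2 and 0, 0 and 0 in Group 3. All hearts of Group 3 were at 0, and a count of 0 allows up to 3 reads. In Group 2 pig 29 alone, with 4 reads, passed this limit, which covers counting error only. The fitted log2 fold change was -2.00 (SE 0.59, adjusted p = 0.42), which depends on the pseudocount (-4.90 with 0.1 and -0.72 with 5) and is no bound. mir-24-1 was lower in Group 3 by a log2 fold change of -0.55 (SE 0.37, adjusted p = 0.82), although the groups did not overlap. mir-425, within DALRD3, stood at 2.12, 0 and 11.8 TPM in Group 1, 17.3, 3.16 and 1.78 in Group 2 and 0, 0 and 3.98 in Group 3, with pig 24 highest and 3 hearts at 0. mir-193a stood at 4.24, 1.38 and 9.87 TPM in Group 1, 2.17, 6.32 and 8.89 in Group 2 and 4.59, 0 and 3.98 in Group 3 without separation of the groups.

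In this comparison 0 loci were called (0.0509% of all genes), and limma gave an unadjusted p under 0.05 for 7 (17.9%), against 7.22% of all genes and 18.3% of the other short RNA loci. Of the 7, 6 were higher and 1 was lower, against 2.57% and 4.65% of all genes in these directions. The groups did not overlap in 6 loci (15.4%) and in 14.7% of all genes, with 4 loci higher (4.44% of all genes) and 2 lower (10.3%). An absolute log2 fold change over 1 was reached by 14 loci (35.9%), 4.6% of all genes and 27.8% of the other short RNA loci. The median log2 fold change was 0.24 over the 39 loci, with 26 above 0 and 13 below, and -0.07 over all genes. Leaving out single hearts gave 0.26 to 0.62 over the 39 loci, highest without pig 31, and a pseudocount of 0.1 gave 0.68.

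Group 1 against Group 3 compared 24 h of HOPE after NRP with 2 h of HOPE without NRP, and it shares its hearts with both comparisons above. mir-24-1, mir-101-2, mir-186 and mir-199a-2 were lower in every heart of Group 1 than in any of Group 3, and mir-486-2 was higher. None passed the adjusted threshold here either. The smooth muscle markers ACTA2 and TAGLN summed to 177 to 295 TPM in Group 1 and 337 to 403 TPM in Group 3 (MYH11 was at 0 in all hearts). The neutrophil markers did not overlap either, at 0.357 to 3.89 TPM in Group 1 and 0 to 0.343 TPM in Group 3. The part of both lists in the differences was not tested. NRP and the duration of HOPE cannot be told apart in it.

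The log2 fold change of mir-24-1 was -1.69 (SE 0.37, adjusted p = 0.23), and 7, 4 and 1 reads stood against 10, 9 and 9. For mir-29b-2 it was -2.17 (SE 0.67, adjusted p = 0.47), and -1.24 without pig 28, which held 2 reads. Its neighbour mir-29c had a log2 fold change of -0.41 (SE 0.53, adjusted p = 0.98), which turned to 0.36 without pig 34.

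mir-101-2 had a log2 fold change of -1.94 (SE 0.61, adjusted p = 0.48), and -2.81 without pig 27. Over 12 alternative settings it ranged from -4.03 to -0.80, with a lowest limma adjusted p of 0.056. Pig 27 at 5.11 TPM lay just under the lowest heart of Group 3 at 5.13 TPM. The log2 fold change of mir-186 was -1.27 (SE 0.46, adjusted p = 0.67), that of mir-339-1 -1.35 (SE 0.60, adjusted p = 0.83) and that of mir-199a-2 -1.39 (SE 0.65, adjusted p = 0.83). Without pig 28 the values of mir-339-1 and mir-199a-2 were -0.58 and -0.79. mir-486-2 was higher with a log2 fold change of 1.75 (SE 0.49, adjusted p = 0.40).

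mir-208b lies within MYH7, the slow myosin heavy chain gene, and stood at 8.48, 1.38 and 17.8 TPM in Group 1, 8.67, 3.16 and 3.56 in Group 2 and 1.53, 5.32 and 0 in Group 3. Its log2 fold change was 1.58 (SE 0.72, adjusted p = 0.83), and pig 28 lay within the range of Group 3. This fold change was 2.41 without pig 28, 0.92 without pig 30 and 0.91 without pig 34. MYH7 stood at 1086 to 2514 TPM, highest in pig 30, which was also the highest heart for mir-208b. The log2 fold change of MYH7 was 0.09 (SE 0.32), and -0.29 to 0.36 when single hearts were left out. mir-378-1, within the mitochondrial coactivator gene PPARGC1B, stood at 1.06, 9.68 and 9.87 TPM in Group 1, 4.34, 6.32 and 0 in Group 2 and 1.53, 3.55 and 1.99 in Group 3, and pig 27 lay below the hearts of Group 3.

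By limma, 0 loci were called in this comparison (0.0509% of all genes) and 8 (20.5%) had an unadjusted p under 0.05, against 6.01% of all genes and 17.9% of the other short RNA loci. Of these, 2 were higher (2.78% of all genes) and 6 were lower (3.23%). The 8 became 5 without pig 34, without a filter on low values or after median-of-ratios scaling. The groups did not overlap in 5 loci (12.8%), against 7.48% of all genes, with 1 higher (2.97%) and 4 lower (4.51%). An absolute log2 fold change over 1 was reached by 13 loci (33.3%), against 4.24% of all genes and 25.3% of the other short RNA loci. The median log2 fold change was -0.33 over the 39 loci and -0.03 over all genes. It was -0.12 over the 39 loci without pig 34 and -0.14 after median-of-ratios scaling.

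**Figure D3:**
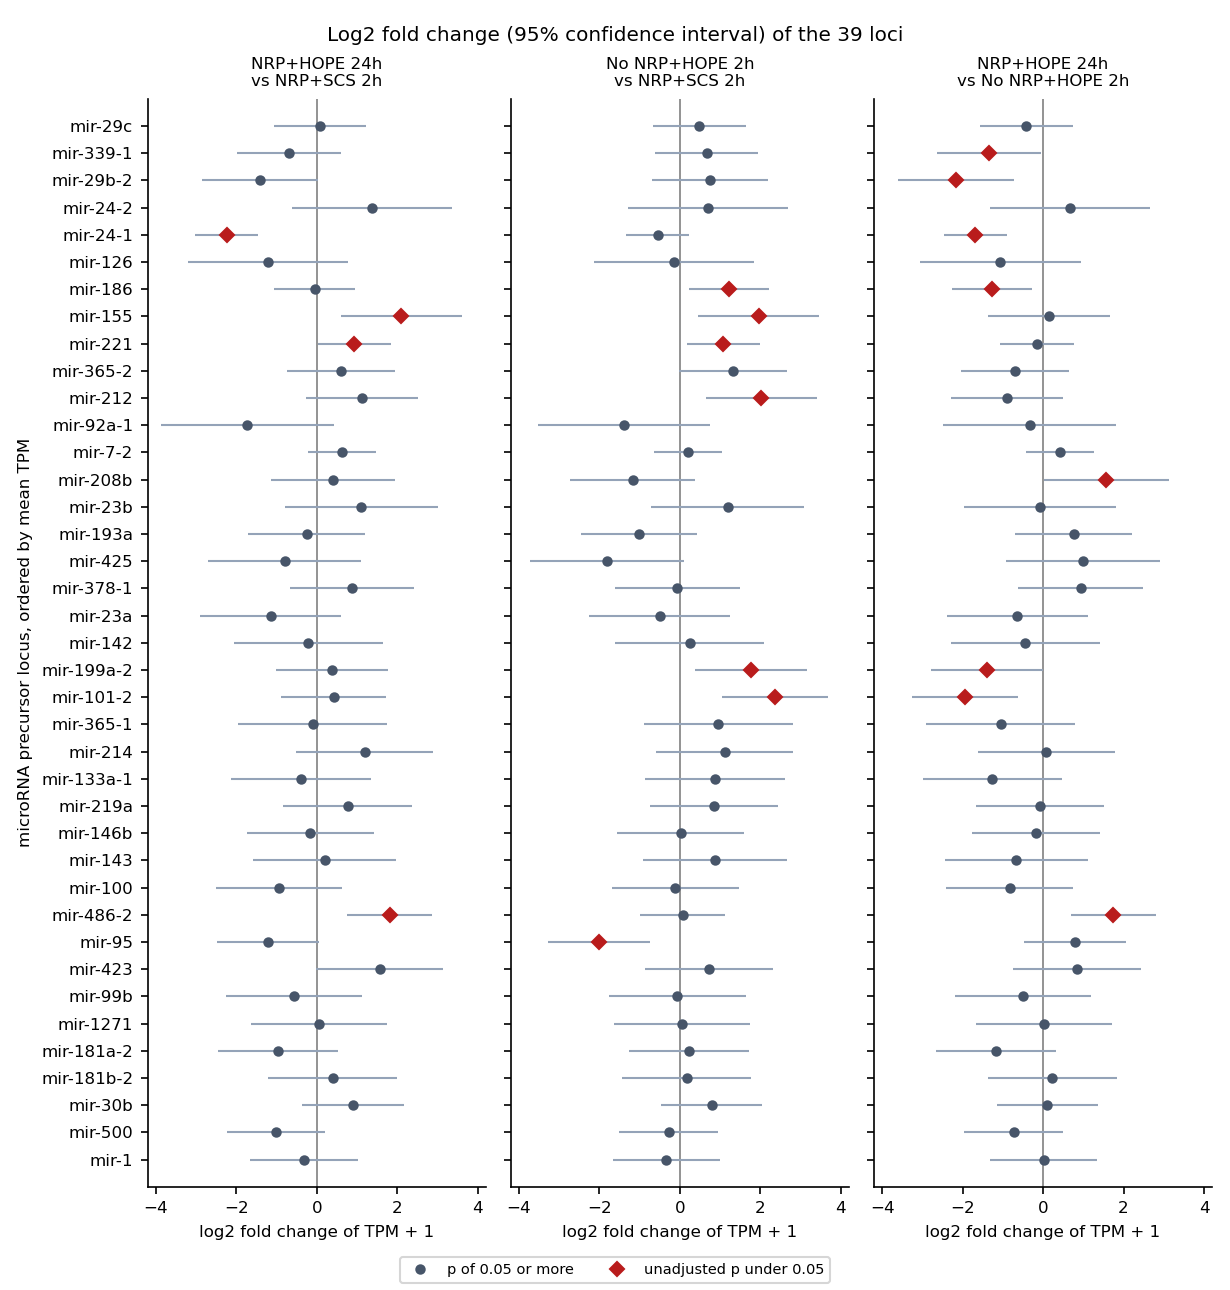
Log2 fold change of TPM + 1 with its 95% confidence interval for each of the 39 loci (rows, ordered by mean TPM) in the 3 comparisons, from limma over all 9 hearts. Diamonds mark an unadjusted p under 0.05, of which there are 4, 7 and 8 from left to right, and none had an adjusted p under 0.05.

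Over the 3 comparisons, 12 loci had an unadjusted p under 0.05 at least once and 7 of them in 2 comparisons, which share a group. The matching counts over all genes were not made, so whether these are unusual was not tested. When single hearts were left out, 21, 18 and 21 of the 39 loci lost or turned the sign of their fold change in the 3 comparisons in the order above. Large fold changes were found at loci with few and with many reads. Among the 20 loci with 20 or fewer reads over all hearts, 5, 3 and 6 had an absolute log2 fold change over 1 in the 3 comparisons in the order above. Among the 19 loci with more reads these numbers were 9, 11 and 7. The 8 loci that passed with exactly 3 hearts (mir-1, mir-30b, mir-99b, mir-181a-2, mir-181b-2, mir-423, mir-500 and mir-1271) had between 4 and 9 reads in all, and 0 of the 39 loci passed through the hearts of 1 group only.

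Of 8 muscle microRNAs chosen, mir-1, mir-133a-1, mir-208b and mir-486-2 are among the 39 loci, mir-133b and mir-206 were at 0 in all hearts, and mir-208a and mir-499 were not analysed here. mir-1 had 2 reads in pig 27, 3 in pig 29, 1 in pig 34 and 0 in the other hearts. mir-133a-1 stood at 3.29, 0 and 0 TPM in Group 1, 0, 8.59 and 0 in Group 2 and 1.19, 2.76 and 6.18 in Group 3, highest in pig 25 and at 0 in 4 hearts. Both are known for their very high mature levels in cardiac muscle, which these values do not measure.

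Endothelial and smooth muscle microRNAs were mir-126, mir-143, mir-221 and mir-92a-1, while mir-145, mir-222, mir-17, mir-18a and mir-19a were below the filter and 4 loci of the mir-17 and related clusters were at 0. mir-126 lies within EGFL7, a factor secreted by endothelial cells, and stood at 6.97, 0 and 34.6 TPM in Group 1, 19.0, 19.1 and 7.79 in Group 2 and 6.70, 27.2 and 10.9 in Group 3. EGFL7 stood at 42.3, 44.1 and 124 TPM in Group 1, 111, 73.6 and 114 in Group 2 and 57.7, 162 and 47.9 in Group 3. Pigs 30 and 33 were the 2 highest hearts for both. The log2 fold changes of mir-126 in the 3 comparisons were -1.21 (SE 0.93), -0.15 and -1.06, and those of EGFL7 were -0.66 (SE 0.47), -0.35 and -0.31. Those of mir-126 turned with single hearts, to 0.15 and 0.30 in the comparisons of Group 1 without pig 28, which had no reads, and to 0.27 in Group 3 against Group 2 without pig 31. With single hearts left out, EGFL7 ranged from -1.16 to -0.39, from -0.88 to -0.01 and from -0.81 to 0.22. mir-143 stood at 0, 0 and 5.92 TPM in Group 1, 0, 0 and 3.56 in Group 2 and 4.59, 0 and 3.98 in Group 3, on 10 reads in 4 hearts. Its spanning gene IL17B stood at 6.01, 6.03 and 6.04 TPM in Group 1, 11.3, 8.82 and 11.7 in Group 2 and 9.90, 13.6 and 16.7 in Group 3. IL17B was lower in Group 1 than in Group 3 in every heart, with a log2 fold change of -1.01 (SE 0.29, adjusted p = 0.42).

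Of the inflammation and hypoxia microRNAs, mir-155, mir-212 and mir-146b are among the 39 loci, mir-21 was at 0 in all hearts and 6 others were not analysed here. mir-146b stood at 3.43, 0 and 1.60 TPM in Group 1, 3.50, 2.55 and 0 in Group 2 and 1.24, 0 and 6.43 in Group 3, without separation of the groups.

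The 10 loci outside these lists and leading groups were mir-142, mir-365-1, mir-214, mir-219a, mir-100, mir-99b, mir-1271, mir-181a-2, mir-181b-2 and mir-30b, with 116 reads in all. Their mean levels lay between 0.820 and 3.24 TPM. Their log2 fold changes ranged from -0.96 to 1.19 in Group 1 against Group 2, from -0.11 to 1.12 in Group 3 against Group 2 and from -1.17 to 0.23 in Group 1 against Group 3, and the lowest adjusted p was 0.83.

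Many hairpins lie inside other genes, whose transcripts can carry them. In the RefSeq annotation of Sscrofa11.1, 38 of the 39 loci were found (all but mir-486-2). Of these, 19 lie within the bounds of another gene, on either strand, and 19 do not. For 15 the spanning gene was compared here, and for 11 of these pairs both passed the filter.

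The signal of the locus stood in no fixed ratio to that of the gene around it. The mean TPM of mir-24-2 was 36.8 while C9orf3, which spans it, stood at 0 to 1.54 TPM, so that the hairpin was 64.6 times as high per length. mir-23b in the same gene was 8.78 times as high. The mir-181a-2 and mir-181b-2 loci within NR6A1, a gene at 0 to 1.20 TPM, were 3.46 and 3.30 times as high. At the other end, mir-208b was 0.00359 times as high as MYH7. The remaining pairs lay between 0.0512 (mir-423 in NSRP1) and 0.771 (mir-378-1 in PPARGC1B).

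In the 11 pairs, the fold changes of locus and spanning gene had the same sign in 3, 4 and 7 pairs in the 3 comparisons, counts that include signs that turned when single hearts were left out. The median absolute log2 fold change was 0.43, 0.87 and 1.0 for the loci and 0.16, 0.19 and 0.15 for the spanning genes. 0 of the spanning genes passed the adjusted threshold, and 1 had an unadjusted p from limma under 0.05 in each comparison.

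**Figure D4:**
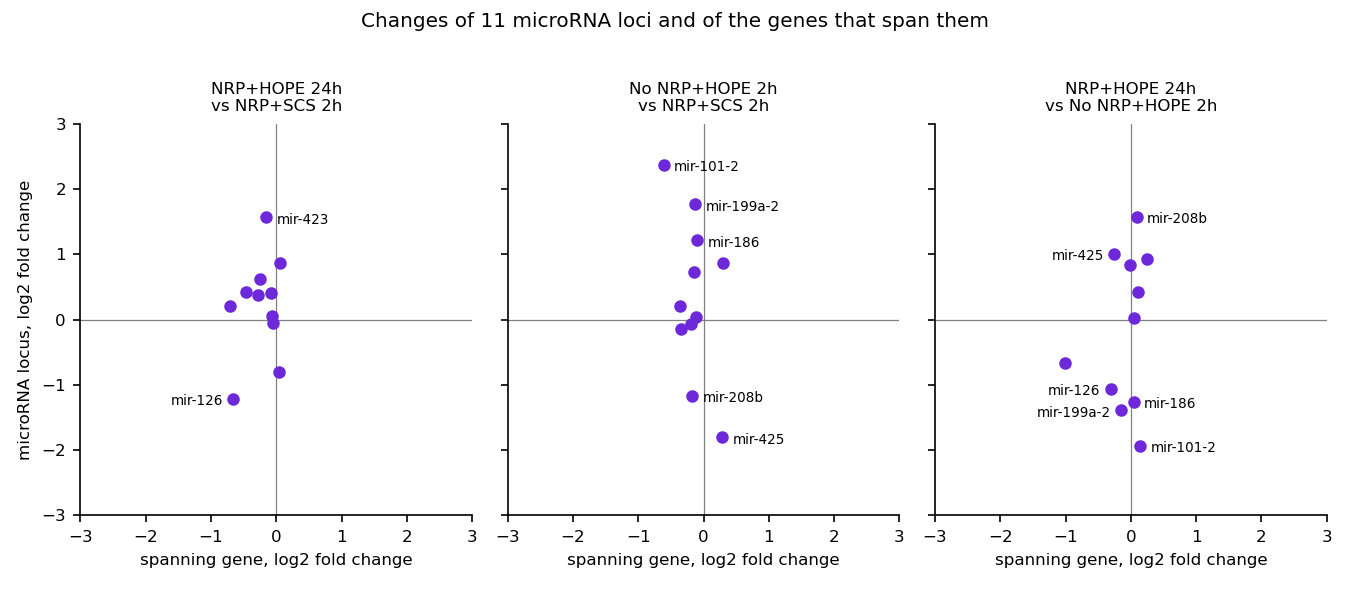
Log2 fold change of 11 microRNA loci (vertical) against that of the genes that span them (horizontal) in the 3 comparisons, on equal scales; loci beyond 1 in absolute value are named. The points spread along the vertical axis, with medians of 0.43, 0.87 and 1.0 in absolute value for the loci and 0.16, 0.19 and 0.15 for the spanning genes.

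Neighbouring hairpins often differed in whether any read was counted. Of the 39 loci, 16 have another annotated microRNA within 5 kb. mir-221 had reads in all hearts and mir-222 in pig 34 alone, mir-92a-1 in 7 hearts and mir-17 in 2, and mir-425 in 6 hearts and mir-191 in none. mir-30b and mir-30d never had reads in the same heart.

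The genes of microRNA processing are protein-coding, and their TPM summed to 579 to 1018 per heart. Of 25 chosen, 15 were tested and 0 were called in any comparison. At an unadjusted p from limma under 0.05 there were 0 higher and 1 lower in Group 1 against Group 2 (TARBP2, a DICER1 partner), where 3.14% of all genes were lower. There were 0 higher and 3 lower in Group 3 against Group 2 (AGO2, HNRNPA1 and DGCR8), where 4.65% of all genes were lower, and 0 in Group 1 against Group 3. Their median log2 fold changes were -0.32, -0.22 and -0.06, beside -0.12, -0.07 and -0.03 over all genes.

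TARBP2 stood at a mean of 4.60 TPM in Group 1 and 9.31 TPM in Group 2, with a log2 fold change of -0.88 (SE 0.31, adjusted p = 0.84). AGO2 stood at a mean of 15.8 TPM in Group 3 against 26.5 in Group 2, with a log2 fold change of -0.72 (SE 0.31, adjusted p = 0.68). DGCR8 was at a mean of 9.73 TPM in Group 3 against 15.8 in Group 2 (log2 fold change -0.66, SE 0.30, adjusted p = 0.69). The means of DROSHA were 1.71 TPM in Group 1, 2.18 in Group 2 and 3.20 in Group 3, and those of DICER1 were 5.81, 5.36 and 4.72 TPM.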

How the data were processed

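RNA from 9 apex biopsies was sequenced as oligo(dT)-selected libraries (NEBNext Ultra II, paired reads of 150 bases), with ERCC spike-in RNA added before library preparation. The authors trimmed reads with Trimmomatic 0.36, aligned them with STAR 2.5.2b to the Ensembl pig genome, and used featureCounts (Subread 1.5.2) to count uniquely mapped exonic reads. The build and the strand setting of counting are not given in the sources used here. The deposited values used are TPM per gene and heart, which keep no total depth. Of the table's columns of TPM, 9 belong to no labelled sample and were not used.

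The 11782 genes at 1 TPM or more in 3 or more hearts were fitted on log2(TPM + 1) with limma 3.58.1 (R 4.3.3), with 1 model of the 3 groups over all 9 hearts, trended empirical Bayes moderation and Benjamini-Hochberg adjustment over all genes in each comparison. Calls needed an absolute log2 fold change over 1 together with an adjusted p below 0.05. Single summed values were compared by a two-sided exact permutation test over hearts (numpy 2.4.6). The limma fit was tested on simulated log-normal values of small spread, with changes set in genes of higher level only. That test did not cover loci with few reads or the recovery of reads from TPM. The alternatives tried were median-of-ratios scaling, a pseudocount of 0.1, dropping the filter on low values, the 6 hearts of a comparison alone, moderation without trend and leaving out each heart. A pseudocount of 5 was added after seeing the data.

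Values in every heart are given for the 10 loci with the highest mean TPM, for the 6 loci with the smallest p in each direction of each comparison, and for the members of 4 lists (muscle, endothelial and smooth muscle, inflammation and hypoxia, mir-23/27/24). For some of these loci the reads are given in place of TPM. The members and lists were chosen with earlier results of these data known. RefSeq's gene table of Sscrofa11.1 gave the locus lengths and, by chromosome, start and end, the neighbours within 5 kb and the spanning genes. It gives no strand, so the planned restriction to spanning genes on the same strand could not be applied, and 1 spanning gene is not reported here. Position in exons or introns and hairpin sequences were not analysed here. Each heart is 1 pig. Reads recovered from TPM served as description only.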

Additional observations from a re-analysis of the deposited data

How the results depend on the processing

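No paired analysis was possible because the pig numbers are not shared between groups. Over 12 alternatives for each of 36 fold changes of named loci, 427 of 432 values kept their direction and their side of the adjusted threshold, 2 passed it (mir-24-1 of Group 1 against Group 2, without pig 27 and with the added pseudocount of 5) and 3 lost or turned their direction, all in Group 1 against Group 3. These were mir-95 (0 without pig 27, range 0 to 1.19 when leaving out hearts), mir-423 (-0.10 without pig 30, range -0.10 to 1.62) and mir-193a (-0.037 without pig 33, range -0.037 to 1.32). The number of called loci in Group 1 against Group 2 was 1 with a pseudocount of 5 and 0 to 1 when leaving out hearts. Loci at an unadjusted p under 0.05 numbered 7 in the 6 hearts alone and 4 to 9 when leaving out hearts in Group 1 against Group 2, 6 to 9 in Group 3 against Group 2, and 5 with no filter, 5 with median-of-ratios scaling and 5 to 10 when leaving out hearts in Group 1 against Group 3. The difference in summed TPM of Group 1 from Group 2 (-6.88) was 25.2 with median-of-ratios scaling and ranged from -49.1 to 37.9 when leaving out hearts. The cause was not tested. The median log2 fold change of the 39 loci ranged from -0.27 to 0.27 when leaving out hearts in Group 1 against Group 2, and kept its sign under the alternatives tried in the other 2 comparisons. Of the 39 loci, 20 had 20 or fewer reads over 9 hearts. The median SE of the fold changes was 0.74 at these and 0.67 at the others.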

Other observations

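The let-7 loci carry names outside the ssc-mir pattern and were not among the 39 loci. Of 9 such loci, 2 reached 1 TPM in 3 or more hearts. let-7d stood at 3.30, 26.8 and 16.9 TPM in Group 1, 21.9, 1.23 and 16.6 in Group 2 and 1.19, 16.5 and 15.4 in Group 3. Each group held 1 heart far below its other two. let-7i stood at 2.99, 2.60 and 1.86 TPM in Group 1, 6.12, 4.46 and 0 in Group 2 and 1.44, 5.01 and 1.87 in Group 3.

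Among the 39 ssc-mir loci above 0 in only 1 or 2 hearts, the highest single value was mir-149 in pig 25 at 11.6 TPM, with 2.28 TPM in pig 24 and 0 elsewhere. mir-421 stood at 10.4 TPM in pig 25 and 1.67 TPM in pig 33. These loci were chosen after their values were seen.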
